A study of Mus musculus with 8 samples.

Results

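The 10 genes described here encode receptors and bridging ligands of efferocytosis, the uptake of dying cells. They were chosen by gene symbol and are 10 of the 27998 genes in the count matrices of sham-operated and ischemia–reperfusion (IR) mouse hearts. *Mertk*, *Axl* and *Tyro3* encode the TAM receptor tyrosine kinases. *Gas6*, *Pros1* and *Mfge8* encode bridging ligands. *Lrp1*, *Stab1*, *Timd4* and *Itgav* encode other receptors or receptor subunits for dying cells. All 10 symbols were found once each, and all 10 genes had UMIs in both libraries.

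A dying cell turns phosphatidylserine to its outer surface. GAS6 and protein S bind this lipid and engage TAM receptors on the phagocyte, and MFGE8 links the lipid to integrins that contain the αv subunit. TIM-4 and stabilin-1 bind phosphatidylserine directly, and LRP1 is a large endocytic receptor that takes part in the uptake of dying cells. In the heart, MerTK is used as a marker of resident macrophages, whereas CCR2 marks monocytes and macrophages derived from them.

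Left ventricular cells of male C57BL/6 mice aged 10 to 12 weeks were profiled by droplet single-cell RNA sequencing. IR mice had the left anterior descending coronary artery tied for 30 min and then released, and sham mice had the same surgery without the tie. The labels list 4 samples at 0 h, taken here as sham, and 4 samples 6 h after IR, each from 3 pooled hearts, but the protocol places sham tissue 6 h after surgery too, so the time after sham surgery is unsettled. No barcode names its sample, and each condition was therefore 1 library without replicates. No test between conditions was possible. Intervals below are 95% intervals of the UMI counts (molecules counted by their unique tags). They cover counting error only and hold no variation between mice, and cells from 1 heart share their source.

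The sham library held 11620 barcodes and 58653308 UMIs and the IR library 8539 barcodes and 75033226 UMIs, with 30 barcodes in common. The filter stated by the study (200 to 2500 detected genes, at most 30% mitochondrial UMIs) left 9777 sham cells (84.1%) and 4880 IR cells (57.2%). The upper limit was exceeded by 13.8% of sham and 39.6% of IR barcodes, and so IR-to-sham values without it are given beside the ratios the text turns on. Cells were clustered without the 10 genes and the clusters were named from markers of each cell class. In sham and IR there were 3171 and 809 macrophage/monocyte-like cells, 2963 and 231 fibroblast-like cells, 296 and 70 endothelial-like cells and 818 and 129 mural-like cells (pericytes and smooth muscle). There were 246 and 2379 neutrophil-like cells, and the summed level of 9 neutrophil markers in macrophage/monocyte-like cells was 186 CPM in sham and 1592 CPM in IR (1 marker at 0 in sham). The summed level of 6 platelet markers there was 9.35 CPM in sham and 116 CPM in IR, also with 1 marker at 0 in sham. The part of either in the values below was not tested. With no upper gene limit, 10.5% of sham and 68.6% of IR macrophage/monocyte-like cells had over 2500 genes. These shares were 19.2% and 86.2% in fibroblast-like, 30.8% and 46.6% in endothelial-like and 3.84% and 33.8% in mural-like cells. Values below describe the cells under the limit unless stated otherwise. CPM is the number of UMIs of a gene per 1000000 UMIs of the class.

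Several classes lay in different clusters in each library. Of the fibroblast-like cells, 2959 in sham and 86 in IR were in a cluster led by *Gsn* and *Dcn*, whereas 4 in sham and 145 in IR were in one led by *Cxcl5* and *Mt2*. A neutrophil-like cluster led by *Slfn4* and *Rsad2* held 175 sham and 8 IR cells, and the other two held 12 and 59 sham but 1560 and 811 IR cells. B cell-like cells formed a cluster of 1083 sham and 36 IR cells and one of 11 and 698. Macrophage/monocyte-like clusters were split in a similar way and are divided further below. Values within these classes compare mainly different clusters, and a shift between clusters and a change within one cannot be told apart.

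In the GENCODE annotation of GRCm38 (mm10), all 10 genes are protein-coding. *Mertk* (ENSMUSG00000014361) lies at chr2:128698956-128802894 on the plus strand, *Axl* (ENSMUSG00000002602) at chr7:25757273-25788705 on the minus strand and *Tyro3* (ENSMUSG00000027298) at chr2:119797733-119818104 on the plus strand. *Gas6* (ENSMUSG00000031451) lies at chr8:13465374-13494490 on the minus strand, *Pros1* (ENSMUSG00000022912) at chr16:62854307-62929346 on the plus strand and *Mfge8* (ENSMUSG00000030605) at chr7:79133768-79149060 on the minus strand. *Lrp1* (ENSMUSG00000040249) lies at chr10:127538161-127621148 and *Stab1* (ENSMUSG00000042286) at chr14:31139013-31168641, both on the minus strand. *Timd4* (ENSMUSG00000055546) lies at chr11:46810800-46844332 and *Itgav* (ENSMUSG00000027087) at chr2:83724397-83806916, both on the plus strand. *Mertk*, *Gas6*, *Lrp1*, *Stab1* and *Itgav* overlap an annotated gene on the other strand, and the sources used here do not state whether counting used the strand.

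The promoters of 3 genes are shown because the data below turn on them: *Mertk* marks the macrophages of interest, *Gas6* was lower in IR in every tissue cell class examined, and *Timd4* had the largest share of its sham UMIs in macrophage/monocyte-like cells among the 10 genes. Each runs from 250 bases before to 50 bases after the gene's start in RefSeq (GRCm38.p6), on the gene's own strand. Capitals mark the GC box GGGCGG and the Maf half-site TGCTGA on either strand. The *Mertk* window is chr2:128698665-128698964 on the plus strand, the *Gas6* window chr8:13494486-13494785 on the minus strand and the *Timd4* window chr11:46810549-46810848 on the plus strand.
Mertk: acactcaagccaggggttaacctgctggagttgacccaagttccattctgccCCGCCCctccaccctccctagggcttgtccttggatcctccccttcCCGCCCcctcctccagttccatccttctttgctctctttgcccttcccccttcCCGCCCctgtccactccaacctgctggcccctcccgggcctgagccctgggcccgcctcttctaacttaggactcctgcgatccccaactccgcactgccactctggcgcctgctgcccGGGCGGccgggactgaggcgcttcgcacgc
Gas6: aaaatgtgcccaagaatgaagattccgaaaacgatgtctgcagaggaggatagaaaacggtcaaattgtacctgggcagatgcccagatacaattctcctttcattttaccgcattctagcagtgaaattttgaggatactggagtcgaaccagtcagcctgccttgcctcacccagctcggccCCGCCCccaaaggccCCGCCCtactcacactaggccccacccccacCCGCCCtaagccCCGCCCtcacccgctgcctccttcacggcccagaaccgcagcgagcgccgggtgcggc
Timd4: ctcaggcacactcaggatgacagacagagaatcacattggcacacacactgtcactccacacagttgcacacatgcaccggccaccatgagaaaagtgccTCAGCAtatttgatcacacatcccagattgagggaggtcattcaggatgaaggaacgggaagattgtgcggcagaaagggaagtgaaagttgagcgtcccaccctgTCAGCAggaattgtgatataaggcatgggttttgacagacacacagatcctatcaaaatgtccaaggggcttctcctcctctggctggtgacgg
The GC box was in the windows of 8 of the 10 genes, against 35.7% of all 32851 RefSeq promoter windows. It occurred 4 times in *Mertk* and 4 times in *Gas6*. The windows without it were those of *Timd4* and *Stab1*. These held the Maf half-site, which was in 19.5% of all windows. An AP-1 motif (TGANTCA, 7.81% of windows), a cyclic AMP response element (TGACGTCA, 1.79%) and an interferon response motif (GAAA repeated after 2 free bases, 3.44%) were searched on both strands and were in none of the 10 windows. The 5 motifs were picked after expression values had been seen. These matches describe letters in the windows and show no binding.

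*Mertk*, the receptor that marks resident cardiac macrophages, was found mainly in macrophage/monocyte-like cells, which held 73.6% of its 621 sham UMIs (95% interval 69.9 to 77.0) and 83.1% of its 231 IR UMIs (77.7 to 87.7). Its level in these cells was 29.7 CPM in sham (27.0 to 32.5; 457 UMIs) and 39.9 CPM in IR (34.5 to 46.0; 192 UMIs). Endothelial-like cells had 41.7 CPM (43 UMIs) and 48.1 CPM (12 UMIs), and mural-like cells 28.6 and 22.8 CPM (57 and 11 UMIs). In both libraries the intervals of these 3 classes overlapped. Fibroblast-like cells lay below them in sham at 3.34 CPM (48 UMIs), and lymphocyte and neutrophil classes had 3 UMIs or fewer per library. The mural-like log2 ratio of IR to sham was -0.33 (-1.41 to 0.62), but 0.67 (0.16 to 1.18) without the upper gene limit. The log2 ratio of IR to sham in macrophage/monocyte-like cells was 0.43 (0.18 to 0.68), and it was 0.03 (-0.14 to 0.19) without the upper gene limit. With high doublet scores left out it was 1.002 (0.73 to 1.27; 168 UMIs in 464 IR cells), and at a resolution of 1.5 it was 0.99 (0.72 to 1.24). At least 1 *Mertk* UMI was seen in 12.5% of sham and 15.1% of IR macrophage/monocyte-like cells, at median depths of 4694 and 6391 UMIs. With each cell thinned to 1000 UMIs, these shares were 2.93% and 3.80%, after 20 sham and 38 IR cells below that depth were left out. B cell-like cells, which should lack the receptor, gave 0.0387% and 0.0299% when thinned, at median depths of 2082 and 3309 UMIs before thinning.

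*Axl*, the TAM receptor with GAS6 as its ligand, was most abundant in fibroblast-like cells, at 492 CPM in sham (481 to 504) and 518 CPM in IR (475 to 565). Mural-like cells had 182 CPM in sham and 251 CPM in IR, a log2 ratio of 0.47 (0.16 to 0.77). In macrophage/monocyte-like cells the level was 162 CPM in sham (155 to 168; 2488 UMIs) and 90.9 CPM in IR (82.6 to 99.9; 437 UMIs). That log2 ratio was -0.83 (-0.98 to -0.68), and it was -1.50 without the upper gene limit but -0.13 when high doublet scores were left out and -0.16 at a clustering resolution of 1.5. Under these 2 settings the class held 464 and 514 IR cells instead of 809. Endothelial-like cells had 42.7 and 36.1 CPM (44 and 9 UMIs), a log2 ratio of -0.24 (-1.46 to 0.81), or -0.91 (-1.35 to -0.48) without the limit. The fibroblast-like ratio was 0.08 (-0.06 to 0.20), or 0.40 (0.37 to 0.44) without the limit, when 1720 IR cells entered instead of 231. Under the limit, fibroblast-like cells held 69.4% of sham *Axl* UMIs and 41.1% of IR *Axl* UMIs, from 2963 and 231 kept cells.

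*Tyro3*, the TAM receptor best known from the nervous system, was rare. Fibroblast-like cells held 83 of its 95 sham UMIs and 6 of its 11 IR UMIs. Their levels were 5.78 CPM (4.60 to 7.17) and 6.03 CPM (2.21 to 13.1), with overlapping intervals. Macrophage/monocyte-like cells had 1 UMI in sham and 0 in IR, where 3 UMIs would have been 0.624 CPM. The receptor genes of the family thus differed in where they were detected, as the plot of levels by cell class shows.

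**Figure D1:**
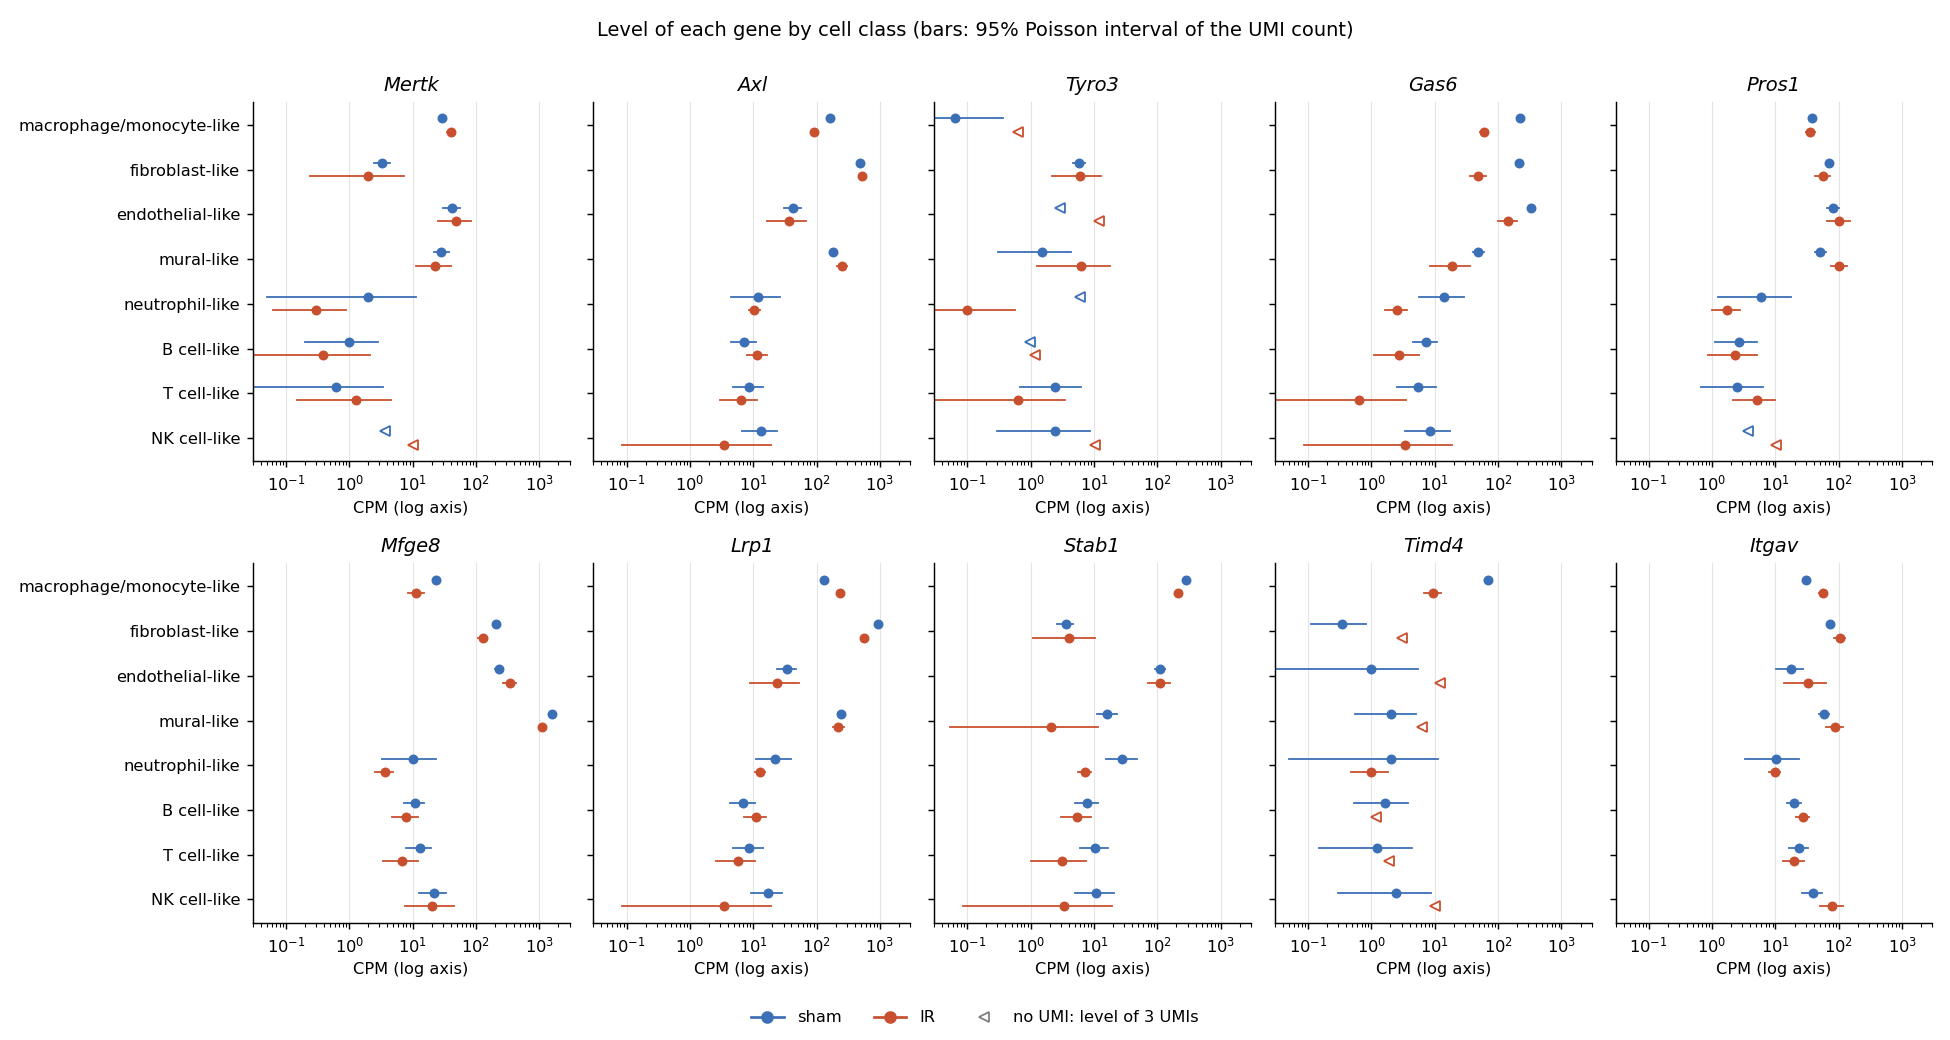
Level of each gene in CPM (log axis) in 8 cell classes of the sham (blue) and IR (red) library, where points are pooled counts of 1 library, bars 95% Poisson intervals, some cut at the left edge of the axis, and open triangles the level that 3 UMIs would give where none was counted. *Timd4* and *Stab1* are highest in macrophage/monocyte-like cells, *Axl* and *Lrp1* in fibroblast-like cells and *Mfge8* in mural-like cells.

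*Gas6*, the ligand of the TAM receptors, was lower in IR in each of the 4 tissue classes. In macrophage/monocyte-like cells it was 225 CPM in sham (218 to 233; 3469 UMIs) and 59.1 CPM in IR (52.4 to 66.4; 284 UMIs). In fibroblast-like cells it was 212 CPM (205 to 220) and 48.2 CPM (35.6 to 63.9), from a class that in IR was mainly the *Cxcl5*-led cluster. At a resolution of 0.4, which kept 85 IR cells in the class, the IR level was 106.5 CPM and the log2 ratio -0.998 (-1.53 to -0.51). In endothelial-like cells, which had the highest level in both libraries, it was 332 CPM (298 to 369) and 144 CPM (101 to 200). In mural-like cells it was 48.7 CPM (39.5 to 59.4) and 18.7 CPM (8.54 to 35.4), the latter from 9 UMIs. The summed level of 9 macrophage/monocyte markers was also lower in IR, at 956 and 128 CPM in endothelial-like and 734 and 162 CPM in mural-like cells, with 3 of the 9 at 0 in IR in each. That of 9 fibroblast markers was 1570 and 449 CPM in endothelial-like (1 at 0 in IR) and 1248 and 761 CPM in mural-like cells. In fibroblast-like cells the sum of their own 9 markers was 53510 CPM in sham and 24590 CPM in IR. The sum of 9 neutrophil markers there was 920 CPM in sham (1 at 0) and 2120 CPM in IR. The part of these marker sums in the *Gas6* values was not tested.

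The sham level of *Gas6* was 3.81-fold the IR level in macrophage/monocyte-like, 4.40-fold in fibroblast-like, 2.30-fold in endothelial-like and 2.61-fold in mural-like cells. The log2 ratios of IR to sham were -1.93 (-2.11 to -1.76), -2.14 (-2.58 to -1.73), -1.20 (-1.74 to -0.70) and -1.38 (-2.55 to -0.40). With no upper gene limit they were -1.58, -1.75, -1.02 and -1.03, with 1664 IR UMIs in macrophage/monocyte-like and 1619 in fibroblast-like cells. B cell-like cells, a reading of free RNA in the suspension, had 7.19 CPM in sham (22 UMIs) and 2.72 CPM in IR (7 UMIs), so that background was also lower in IR. Subtracting the B cell-like level gave log2 ratios of -1.94, -2.18, -1.20 and -1.33. The thinned share of macrophage/monocyte-like cells with a *Gas6* UMI was 18.0% in sham and 5.46% in IR, against 48.3% and 17.7% before thinning. The B cell-like thinned shares were 0.725% and 0.257%.

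*Pros1*, which encodes the anticoagulant and TAM ligand protein S, did not show that pattern. It was 38.0 CPM (35.0 to 41.2) in sham and 35.6 CPM (30.5 to 41.3) in IR in macrophage/monocyte-like cells, a log2 ratio of -0.09 (-0.35 to 0.15). Endothelial-like cells had 80.5 and 100.3 CPM, and fibroblast-like cells 69.1 and 56.3 CPM, with overlapping intervals. In fibroblast-like cells the log2 ratio was -0.30 (-0.71 to 0.09) with the upper gene limit and 0.44 (0.34 to 0.54) without it. Only mural-like cells had intervals that did not overlap among these 4 classes, at 51.2 CPM (41.7 to 62.1) in sham and 102 CPM (75.2 to 134) in IR, a log2 ratio of 0.99 (0.47 to 1.49).

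*Mfge8*, the bridge to αv integrins, had its highest level among the classes in mural-like cells, with 1593 CPM in sham (1538 to 1650) and 1087 CPM in IR (996 to 1184). Mural-like cells held 45.9% of its sham UMIs and 59.8% of its IR UMIs. Fibroblast-like cells, which were more numerous, held 43.5% and 14.5%, the latter from the 231 IR cells kept under the upper gene limit. Fibroblast-like cells had 210 CPM (202 to 217) in sham and 128 CPM (106 to 152) in IR. Endothelial-like cells had 228 CPM (200 to 259) and 341 CPM (272 to 422), the only class of the 4 with a higher value in IR. The log2 ratios were -0.55 (-0.69 to -0.42) in mural-like, -0.72 (-0.98 to -0.46) in fibroblast-like and 0.58 (0.20 to 0.94) in endothelial-like cells. The endothelial-like value with no upper gene limit was 0.01 (-0.18 to 0.20). Macrophage/monocyte-like cells had 23.8 CPM (21.4 to 26.3) in sham and 11.4 CPM (8.62 to 14.9) in IR. B cell-like cells had 10.8 CPM (7.43 to 15.2) and 7.78 CPM (20 UMIs), so that the IR intervals of these classes overlapped.

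**Figure D2:**
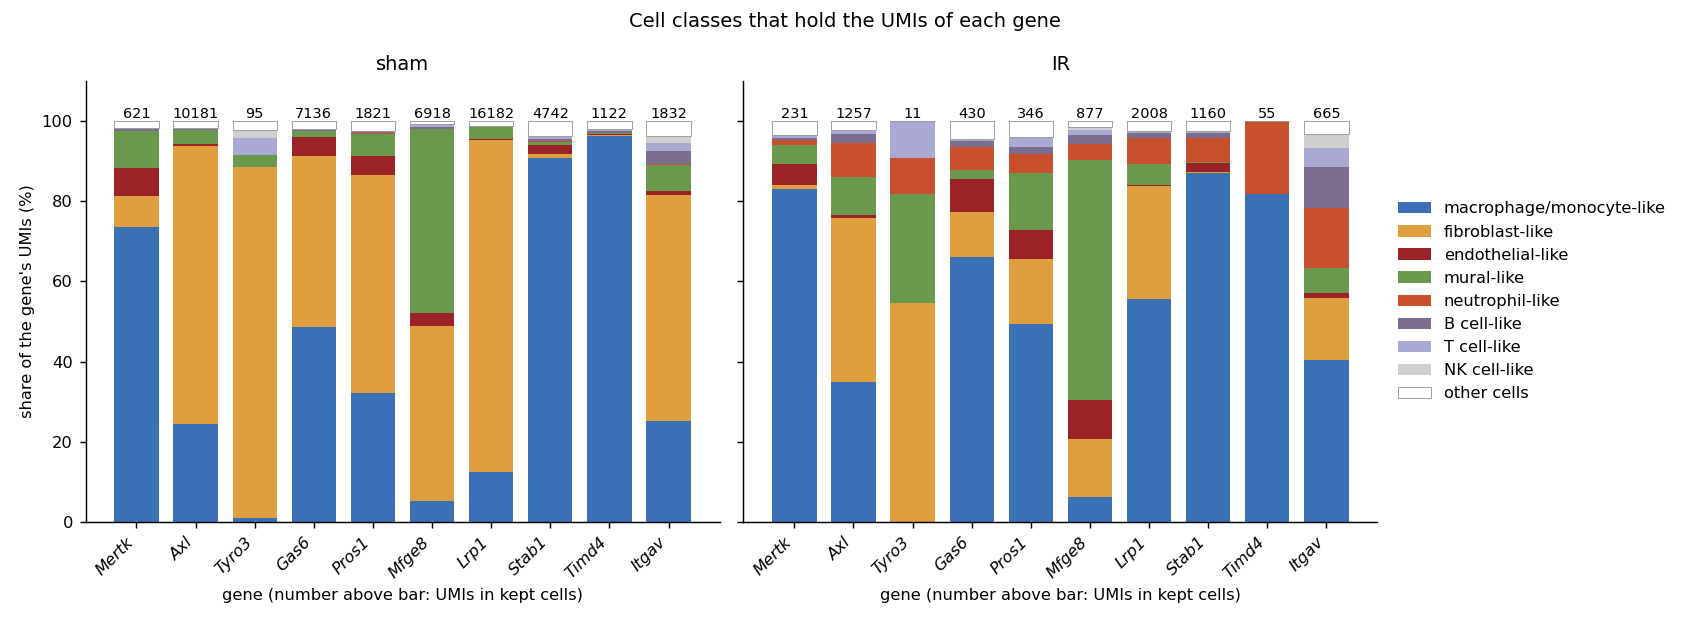
Share of each gene's UMIs (percent) held by each cell class in the sham (left) and IR (right) library, with the number of UMIs in kept cells above each bar. The shares follow the number of cells kept per class as well as the level. Macrophage/monocyte-like cells hold 90.7% of *Stab1* and 96.2% of *Timd4* UMIs in sham. Their share of *Lrp1* is 12.4% in sham and 55.6% in IR, where 231 fibroblast-like cells were kept. Without the upper gene limit there were 1720 IR fibroblast-like cells, 86.2% of them over 2500 genes, and shares without it are not given.

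*Lrp1*, the endocytic receptor, differed in opposite directions, though not under every clustering, in fibroblast-like and macrophage/monocyte-like cells. Fibroblast-like cells had 934 CPM in sham (918 to 950; 13409 UMIs) and 569 CPM in IR (523 to 617; 566 UMIs), a log2 ratio of -0.72 (-0.84 to -0.59). Macrophage/monocyte-like cells had 131 CPM (125 to 136) and 232 CPM (219 to 246), a log2 ratio of 0.83 (0.73 to 0.94). With cells over 2500 genes kept, the ratios were -0.64 (-0.67 to -0.60) and 0.72 (0.65 to 0.78). These fibroblast-like cells were mainly in different clusters in each library. At a clustering resolution of 0.4 the fibroblast-like ratio was 0.34 (0.19 to 0.49), from a class of 85 IR cells. Mural-like cells had 244 CPM in sham and 220 CPM in IR, with overlapping intervals, but their log2 ratio was -0.70 (-0.96 to -0.45) without the upper gene limit.

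*Stab1*, encoding stabilin-1, was 279 CPM (271 to 288) in sham and 210 CPM (197 to 223) in IR in macrophage/monocyte-like cells. That log2 ratio was -0.41 (-0.51 to -0.31), but it was 0.15 (0.04 to 0.26) when high doublet scores were left out and 0.079 (-0.03 to 0.18) at a resolution of 1.5. Endothelial-like cells had 110 CPM (90.4 to 132) and 108 CPM (71.4 to 158). Among fibroblast-like cells it was at 3.55 and 4.02 CPM (51 and 4 UMIs), a log2 ratio of 0.18 (-1.75 to 1.62). The fibroblast-like ratio without the upper gene limit was -1.66 (-1.95 to -1.38), from 387 and 147 UMIs.

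*Timd4*, which encodes the phosphatidylserine receptor TIM-4 of long-lived resident macrophages, was 70.1 CPM (66.0 to 74.4; 1079 UMIs) in sham and 9.36 CPM (6.83 to 12.5; 45 UMIs) in IR in macrophage/monocyte-like cells. The log2 ratio was -2.90 (-3.37 to -2.47), and -2.10 (-2.26 to -1.95) without the upper gene limit. The share of these cells with a *Timd4* UMI was 19.7% in sham and 3.58% in IR, or 5.71% and 0.783% when thinned. In IR, B cell-like, T cell-like, NK cell-like, endothelial-like, fibroblast-like and mural-like cells had 0 UMIs, and neutrophil-like cells had 10 UMIs in 2379 cells. The intervals of sham and IR macrophage/monocyte-like cells lay far apart.

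*Itgav*, the αv integrin subunit, was spread over all 8 classes. It was 29.8 CPM (27.1 to 32.7) in sham and 55.8 CPM (49.3 to 62.9) in IR in macrophage/monocyte-like cells, a log2 ratio of 0.90 (0.68 to 1.12), or 0.49 (0.34 to 0.64) without the upper gene limit. Fibroblast-like cells had 72.1 CPM (67.8 to 76.7) and 105 CPM (85.4 to 127), a log2 ratio of 0.53 (0.23 to 0.83). Mural-like cells had 59.2 and 87.1 CPM, with a log2 ratio of 0.56 (0.01 to 1.08). It was also the gene with the clearest level in lymphocytes, at 19.6 and 26.8 CPM in B cell-like and 38.6 and 78.2 CPM in NK cell-like cells, the latter from 32 and 23 UMIs. The interval of the NK cell-like log2 ratio, 1.02, ran from 0.18 to 1.84.

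Genes were next counted that had at least 20 UMIs over both libraries and differed at least 2-fold. In macrophage/monocyte-like cells 3 of 9 members were that far apart, all lower in IR (*Gas6*, *Mfge8* and *Timd4*), against 21.5% of all 11144 genes in either direction and 11.5% lower in IR. The median log2 ratio was -0.41 over the 9 members and -0.004 over all genes. In fibroblast-like cells *Gas6* alone passed among 9 members, against 31.4% of all genes. In endothelial-like cells *Gas6* alone passed among 8, against 23.3% of all genes. In mural-like cells *Gas6* and *Stab1* passed among 8, against 18.7% of all genes, and *Stab1* rested on 32 sham UMIs and 1 IR UMI. *Stab1* no longer passed there at 10% mitochondrial UMIs, with high doublet scores left out, with classes from own markers or with the B cell-like level subtracted, and the macrophage/monocyte marker sum given above was lower in IR too. Among lymphocytes, *Gas6* passed of 6 members in B cell-like (10.1% of all genes), *Stab1* of 5 in T cell-like (10.5%) and *Itgav* of 2 in NK cell-like cells (23.3%). Neutrophil-like cells had 4 of 7 members past 2-fold, all lower in IR, against 32.4% of all genes in either direction and 20.9% lower, but each of these 4 was at most 28.1 CPM in sham, from 3 to 14 UMIs. *Gas6* was the member that passed in each of the 4 tissue classes, but not in fibroblast-like cells at a resolution of 0.4, as given above, and its log2 ratio was -0.93 in endothelial-like cells with the mean of per-cell CPM. *Mfge8* in macrophage/monocyte-like cells was at -1.05 and between -0.90 and -0.61 under 5 of the 8 alternatives. With no upper gene limit 4 of 9 members passed in macrophage/monocyte-like cells, with *Axl* added, against 23.3% of all genes. With high doublet scores left out 4 of 9 passed, *Mertk* and *Itgav* higher in IR and *Gas6* and *Timd4* lower, against 17.7% of all genes. At a resolution of 1.5 *Itgav* (higher), *Gas6* and *Timd4* (lower) passed, against 18% of all genes.

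**Figure D3:**
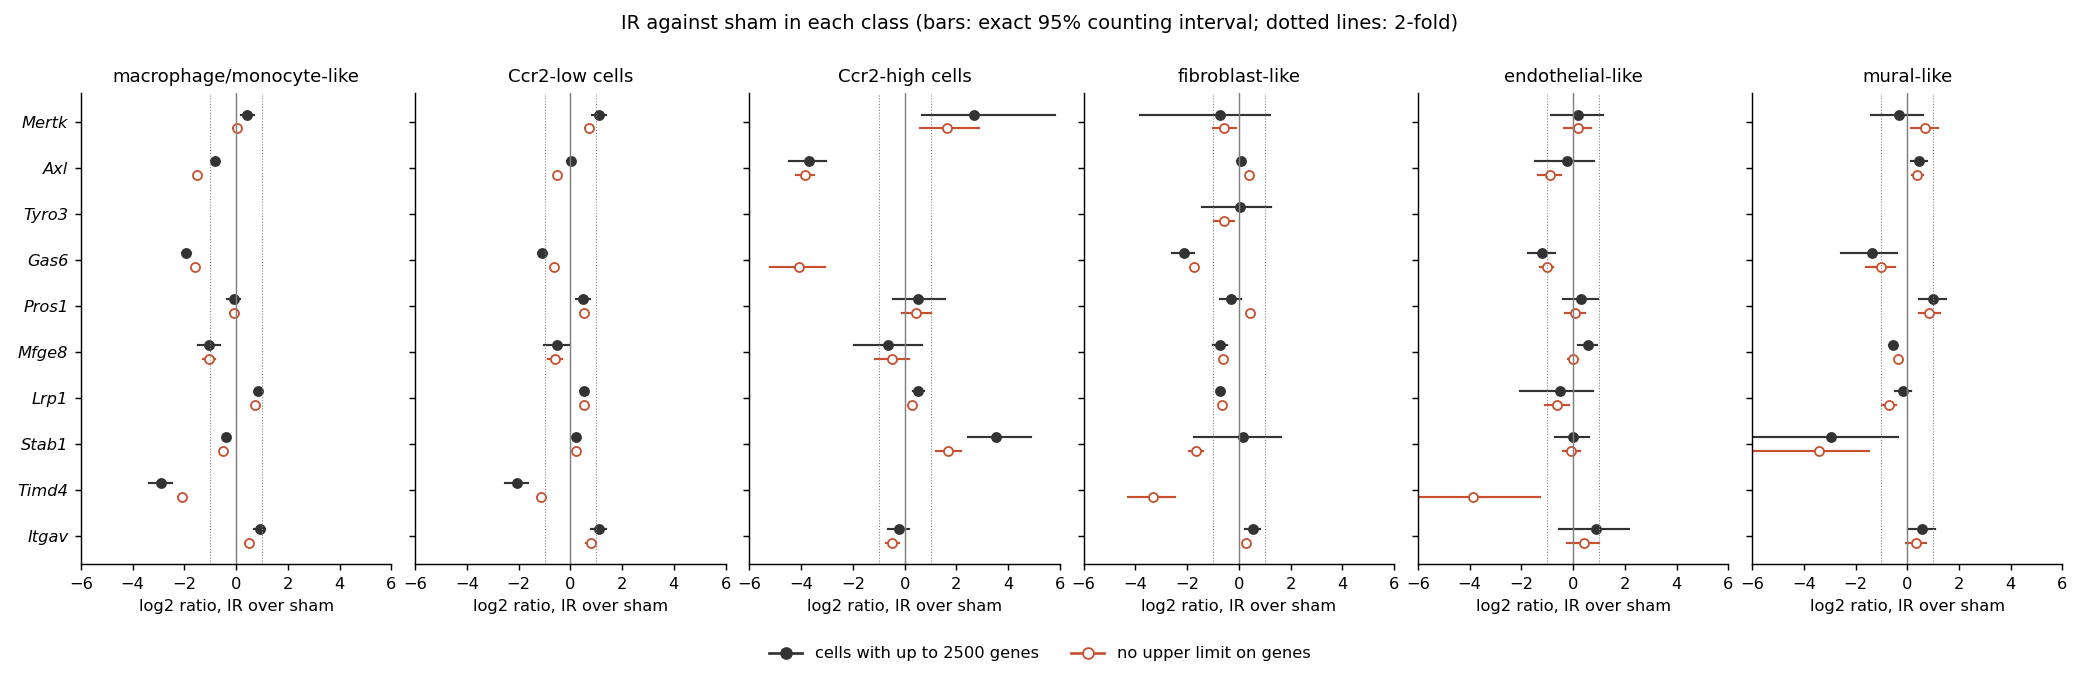
Log2 ratio of IR to sham for each gene in macrophage/monocyte-like cells, their Ccr2-low and Ccr2-high subsets, fibroblast-like, endothelial-like and mural-like cells. Filled points use cells with up to 2500 genes, open points have no upper limit, bars are exact 95% counting intervals clipped at the axis, dotted lines mark 2-fold, and genes under 20 UMIs or at 0 in a library are not drawn. *Gas6* lies left of 0 in every panel where it is drawn, whereas *Lrp1* lies right of 0 in macrophage/monocyte-like and left of 0 in fibroblast-like cells.

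Macrophage/monocyte-like cells were divided into 15 subclusters, again without the 10 genes, and 5 subclusters that matched the markers of other cell classes were left out (284 sham and 81 IR cells). No subcluster kept had 50 or more cells in both libraries, and subclusters are described below only in a library where they had at least 50 cells. In sham the cells were mainly MHCII macrophage-like (subcluster 0 with 1280 and subcluster 8 with 139 cells), interferon macrophage-like (subcluster 1, 979 cells) and Lyve1 macrophage-like (subcluster 4 with 295 and subcluster 7 with 184 cells). Another 222 sham cells formed an unnamed subcluster 5 led by *Ly6c2* and *Plac8*. The interferon name was not kept without the upper gene limit. A subcluster led, like subcluster 1, by *Cd72* and *Ccl12* (1173 sham cells) was then unnamed, mixed with MHCII macrophage markers. In IR, 381 cells were Lpl macrophage-like (subcluster 2) and 65 cells formed an unnamed subcluster 9 led by *Ear2*. Levels in another IR subcluster, of 344 cells, are not reported here, so the IR levels by subcluster given below cover only the 381 and 65 cells named here, of 809 IR cells. A shift in these subclusters and a change within a cell state cannot be told apart with this design.

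*Mertk* was at 29.6 to 44.7 CPM in the 5 named sham subclusters, with overlapping intervals for all pairs except subcluster 4 at 44.7 CPM (35.2 to 56.1) against subcluster 1 at 29.6 CPM (25.0 to 34.9). It was 1 UMI in 222 cells in unnamed subcluster 5. In IR it was 70.0 CPM (59.7 to 81.6; 163 UMIs) in Lpl macrophage-like cells, above the interval of every sham subcluster of at least 50 cells. The *Ear2*-led cells had 0 UMIs in 65 cells. When cells over 2500 genes were kept, the IR subcluster led by *Lpl* held 871 cells and had 58.5 CPM of *Mertk*.

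*Axl* varied more than *Mertk* among the sham macrophages. It was 276 CPM (262 to 292) in interferon macrophage-like cells, 118 CPM (109 to 127) in MHCII subcluster 0 and 31.6 CPM (23.7 to 41.4) in Lyve1 subcluster 4, but 158 CPM (134 to 185) in Lyve1 subcluster 7. Unnamed subcluster 5, where *Mertk* was nearly absent, had 119 CPM (101 to 140). With no upper gene limit, the unnamed *Cd72*-led sham subcluster had 245 CPM (233 to 257). In IR, Lpl macrophage-like cells had 173 CPM (156 to 190), and the *Ear2*-led cells had 3 UMIs.

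*Gas6* and *Timd4* were highest in the Lyve1 macrophage-like subclusters of sham. *Gas6* was 526 CPM (491 to 561) in subcluster 4 and 447 CPM (406 to 490) in subcluster 7, against 146 to 265 CPM in the other named sham subclusters. *Timd4* was 187 CPM (167 to 209) in subcluster 4 and 309 CPM (275 to 346) in subcluster 7, against 37.6 to 54.3 CPM. In IR Lpl macrophage-like cells *Gas6* was 108 CPM (95.3 to 123) and *Timd4* 14.6 CPM (10.1 to 20.4), both below the interval of every named sham subcluster. The *Ear2*-led cells had 0 UMIs of either gene. When cells over 2500 genes were kept, the *Lpl*-led IR subcluster of 871 cells was named Lyve1 macrophage-like. It had 171 CPM of *Gas6*, against 223 and 496 CPM in the sham MHCII and Lyve1 macrophage-like subclusters, and 42.5 CPM of *Timd4*, against 38.9 and 148 CPM.

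The remaining genes are given for the subclusters reported, without an order over all of them. *Stab1* was 230 to 593 CPM in the named sham subclusters, 349 CPM in Lpl macrophage-like cells and 5.67 CPM in unnamed subcluster 5. *Pros1* was 91.9 CPM (77.9 to 108) in Lyve1 subcluster 4. That interval overlapped those of sham subcluster 7 at 64.8 CPM (49.9 to 82.8) and sham subcluster 8 at 58.6 CPM (38.6 to 85.3). *Lrp1* was 252 CPM (206 to 305) in the *Ear2*-led IR cells and 171 CPM (155 to 189) in Lpl macrophage-like cells, against 96.6 to 194 CPM in the sham subclusters. *Itgav* was 111 CPM (81.6 to 149) in the *Ear2*-led IR cells and 63.1 CPM in sham subcluster 5, against 17.9 to 34.7 CPM in the named sham subclusters.

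**Figure D4:**
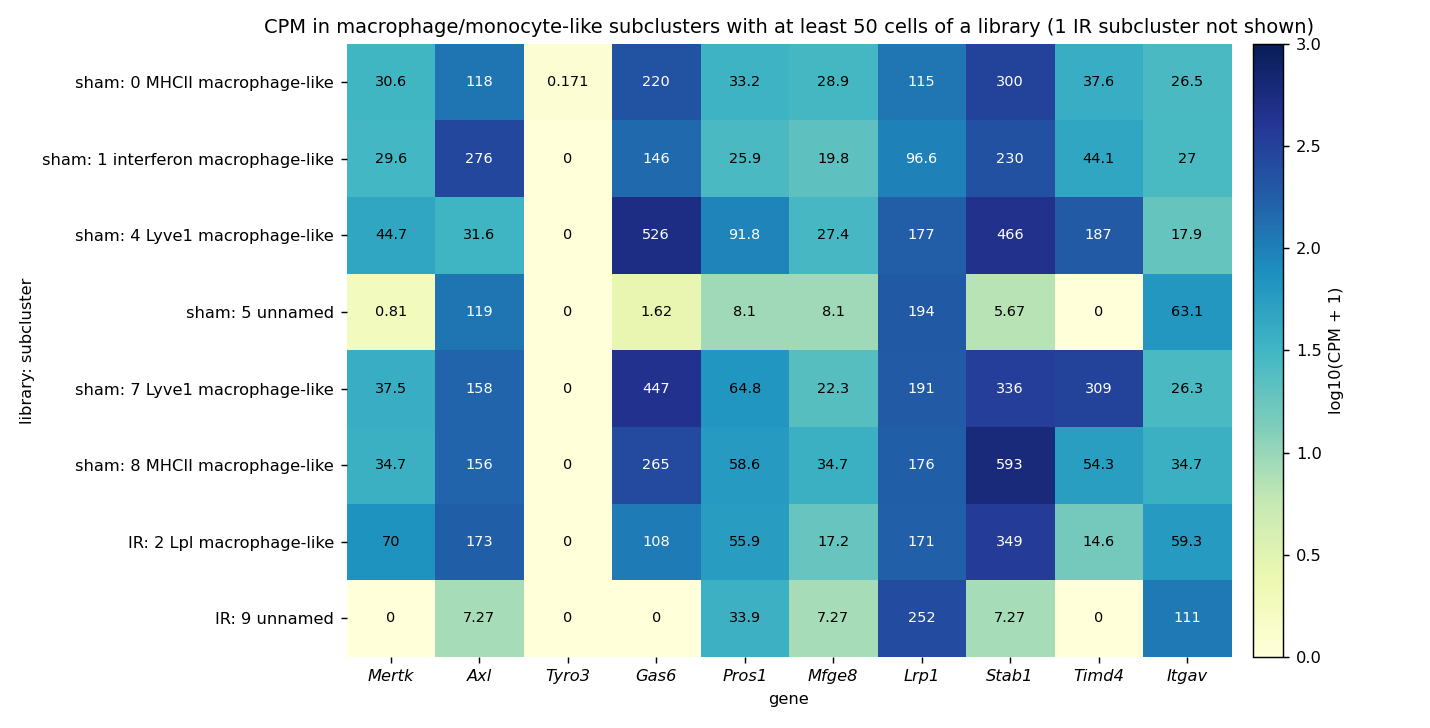
CPM of each gene (numbers in the cells, colour on a log10(CPM + 1) scale) in macrophage/monocyte-like subclusters with at least 50 cells of a library, sham rows above IR rows, with 1 IR subcluster not shown. *Gas6* and *Timd4* are highest in the Lyve1 macrophage-like rows, *Axl* in the interferon macrophage-like row, and the *Ear2*-led IR cells (subcluster 9) have 0 UMIs of *Mertk*, *Gas6* and *Timd4*.

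The subclusters were then grouped by *Ccr2*, a division chosen after the subclusters had been seen. Those with *Ccr2* below the mean over subclusters (Ccr2-low) held 2916 sham and 400 IR cells, and those above it (Ccr2-high) 255 sham and 409 IR cells. Ccr2-low cells were mainly in subclusters 0, 1, 4, 7 and 8 in sham, but 381 of the 400 were in subcluster 2 in IR. Of the 255 sham Ccr2-high cells, 222 were in subcluster 5, and the others were in the subclusters that held the IR cells, which were subcluster 9 and the subcluster not reported here. The levels within a class are therefore mainly those of different subclusters in each library. With no upper gene limit, 8.52% of sham and 63.3% of IR Ccr2-low cells had over 2500 genes. The shares were 29.0% and 73.1% in Ccr2-high cells.

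In Ccr2-low cells *Mertk* was 32.4 CPM in sham (29.5 to 35.6) and 69.5 CPM in IR (59.5 to 80.8), a log2 ratio of 1.10 (0.84 to 1.36). *Itgav* had levels of 26.5 CPM (23.8 to 29.3) and 56.9 CPM (47.8 to 67.1), with a log2 ratio of 1.10 (0.81 to 1.39). *Axl* was nearly equal in both, at 167 CPM (160 to 173) and 171 CPM (155 to 188), with a log2 ratio of 0.03 (-0.12 to 0.19). *Mertk* and *Itgav* were thus higher in IR and *Axl* differed by less than its counting interval. *Gas6* was 247 CPM (239 to 256) and 116 CPM (103 to 131), so that the log2 ratio was -1.09 (-1.27 to -0.91). *Timd4* was 77.0 CPM (72.4 to 81.7) and 18.4 CPM (13.4 to 24.6), with a log2 ratio of -2.06 (-2.53 to -1.63). Of the 9 members with enough UMIs, 4 (*Mertk*, *Itgav*, *Gas6* and *Timd4*) were at least 2-fold apart, against 18.2% of all genes. With no upper gene limit 1 of 9 was, against 18.5% of all genes, namely *Timd4* at -1.15 (-1.31 to -0.99), while *Mertk* was at 0.72 (0.55 to 0.89), *Gas6* at -0.62 (-0.70 to -0.54) and *Itgav* at 0.80 (0.61 to 0.98). At 10% mitochondrial UMIs 3 of 9 were (18.8% of all genes), with *Itgav* at 0.95, and with the mean of per-cell CPM 3 of 9 (20.6%), with *Gas6* at -0.89. All 4 kept their direction without the limit, and *Axl* was then at -0.52 (-0.62 to -0.42). The summed level of 9 neutrophil markers in Ccr2-low cells was 83.7 CPM in sham and 764 CPM in IR, and that of 6 platelet markers was 9.34 and 126 CPM.

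In Ccr2-high cells *Axl* was 111 CPM in sham (94.2 to 130; 153 UMIs) and 8.47 CPM in IR (5.17 to 13.1; 20 UMIs), so that the sham level was 13.1-fold the IR level. The log2 ratio was -3.71 (-4.46 to -3.04), and -3.86 without the upper gene limit. At 10% mitochondrial UMIs it was -0.99 (-3.11 to 2.19), from 2 UMIs in 23 sham cells and 14 UMIs in 242 IR cells, too few for *Axl* to be counted, and 2 of 4 members then passed 2-fold (*Stab1* and *Pros1*), against 32.2% of all genes. *Stab1* was 5.08 CPM (7 UMIs) and 58.9 CPM (139 UMIs), a log2 ratio of 3.53 (2.45 to 4.88) that was 1.69 (1.23 to 2.19) without the limit. It had 6 UMIs in each library when high doublet scores were left out and 8 and 6 at a resolution of 1.5, too few to be counted among the members tested, and its log2 ratio was then 1.60 (-0.31 to 3.50) and 1.23 (-0.58 to 2.95). *Mertk* had 2 UMIs in sham and 22 in IR, a log2 ratio of 2.68 (0.66 to 5.82), but 2 and 0 UMIs when high doublet scores were left out, which kept 66 IR cells. *Lrp1* was 200.3 CPM (177 to 225) and 290.1 CPM (269 to 313). *Timd4* had 0 UMIs in both libraries, and *Gas6* had 2 and 0. Of 7 members with enough UMIs, 3 were at least 2-fold apart (*Mertk*, *Axl* and *Stab1*), against 30.7% of all genes. With no upper gene limit 4 of 8 were, with *Gas6* added at 37 and 11 UMIs, against 29.7%. With high doublet scores left out 2 of 4 were (*Axl* and *Pros1*), against 25.9%. The summed level of 9 neutrophil markers in Ccr2-high cells was 1230 CPM in sham (1 at 0) and 2449 CPM in IR, and that of 6 platelet markers was 9.44 (2 at 0) and 106 CPM. Their part in these ratios was not tested.

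Receptor and ligand were also read in the same cells. In sham Ccr2-low cells, *Axl* had a UMI in 46.3% of the 393 cells with *Mertk* and in 45.3% of the others, and *Gas6* in 63.1% of the cells with *Mertk* and 50.7% of the others. In IR these shares were 60.0% and 50.9% for *Axl* and 49.5% and 30.9% for *Gas6*, over 105 cells with *Mertk*. *Gas6* had a UMI in 47.5% of sham cells with *Axl* and in 56.5% of those without it. Cells with a *Mertk* UMI were deeper, with a median of 5057 UMIs against 4592 in sham and 7190 against 6399 in IR, and these shares were not corrected for that.

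Another 56 genes of dying-cell clearance were taken from 7 lists (other phosphatidylserine receptors, integrin partners and scavenger receptors, other bridging molecules, the CD47–SIRPα pair, engulfment machinery, receptor shedding and the handling of engulfed material). In macrophage/monocyte-like cells 50 of them had at least 20 UMIs. Of these, 11 were at least 2-fold higher in IR, against 10% of all genes, and 3 at least 2-fold lower, against 11.5%. With no upper gene limit 11 were higher, against 8.52% of all genes, and 7 lower, against 14.8%. *Cd14* then joined the higher genes and *Timp3* left them, and *Itgb3*, *Scarf1*, *Xkr8* and *Abca1* joined the lower genes. The median log2 ratio of the 50 was 0.31.

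The bridging molecules went both ways. *C1qa*, *C1qb* and *C1qc*, the subunits of complement C1q that coats dying cells, had sham levels of 7737, 8486 and 4926 CPM. Their IR levels were 2380, 2895 and 1455 CPM, and their log2 ratios -1.70, -1.55 and -1.76. In Ccr2-low cells these ratios were -0.87, -0.74 and -0.94. *Thbs1*, encoding thrombospondin 1, was 43.3 CPM in sham and 2341 CPM in IR, a log2 ratio of 5.76 (5.64 to 5.87). In Ccr2-low cells it was 26.5 and 67.1 CPM, whereas Ccr2-high cells had 214 and 4695 CPM. *Lgals3*, encoding galectin-3, was 542 and 1251 CPM. In Ccr2-low cells it was 388 and 861 CPM. In Ccr2-high cells it was lower in IR, at 2111 and 1654 CPM, a log2 ratio of -0.35 (-0.42 to -0.28).

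Among the receptors, *Cd300lf* was 7.34 CPM in sham and 146 CPM in IR, *Havcr2* (TIM-3) 11.2 and 63.5 CPM, and *Itgam* (CD11b) 96.2 and 472 CPM. The scavenger receptor genes *Cd36* and *Msr1* had sham levels of 119 and 77.9 CPM and IR levels of 449 and 429 CPM. In Ccr2-low cells *Cd36* was 126 CPM in sham and 761 CPM in IR, a log2 ratio of 2.59 (2.50 to 2.69). *Itgam* is also a gene of neutrophils, whose marker sum was higher in these cells in IR as given above, and the part of that in its ratio was not tested. Fibroblast-like cells also had more *Cd300lf* in IR, at 0.557 and 32.2 CPM (8 and 32 UMIs), and more *Itgam*, at 1.53 and 29.1 CPM. *Cd300lf* was 1.28 and 40.9 CPM in Ccr2-low cells. The part of RNA from other cells in the *Cd300lf* ratio was not tested either. No gene of the engulfment machinery (7 with enough UMIs) or of the CD47–SIRPα pair passed 2-fold in macrophage/monocyte-like cells. Within the subsets some did. Over all 7 lists, 49 genes had enough UMIs in Ccr2-low cells. Of these, 2 were at least 2-fold lower in IR (*Calr* and *Rac2*), against 7.55% of all genes, and 13 higher, against 10.7%. In Ccr2-high cells 47 had enough UMIs, with 10 higher, against 12.2% of all genes, and 7 lower, against 18.5%. The 7 were *Cd300a*, *Cd300lb*, *Scarb1*, *Cd47*, *Dock2*, *Rac2* and *Pparg*. *Rac2*, a GTPase gene of the engulfment machinery, had log2 ratios of -1.10 (-1.30 to -0.91) in Ccr2-low and -1.13 (-1.30 to -0.97) in Ccr2-high cells. In Ccr2-high cells *Dock2*, which encodes an activator of Rac, was at -1.23 (-1.49 to -0.97) and *Cd47*, which encodes a surface signal against uptake, at -1.53 (-1.67 to -1.39). For genes of the 7 lists, ratios within the Ccr2 subsets are not given without the upper gene limit.

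Genes that bear on the release of receptors from the cell surface, proteases and an inhibitor, were counted as a list of 5. In macrophage/monocyte-like cells 3 of the 5 were at least 2-fold higher in IR, against 10% of all genes. Without the upper gene limit 2 of the 5 were, against 8.52%. *Adam9* was 32.8 CPM in sham and 89.5 CPM in IR, *Furin*, which encodes a protease that activates other proteins, 39.5 and 160 CPM, and *Timp3*, an inhibitor of such shedding, 2.92 and 6.03 CPM from 45 and 29 UMIs. *Timp3* was under 2-fold without the upper gene limit. *Adam10*, another protease gene of the list, was 43.7 CPM in sham and 85.9 CPM in IR, a log2 ratio of 0.98 (0.80 to 1.15). In Ccr2-low cells its log2 ratio was 1.015 (0.78 to 1.245). *Adam17*, which encodes the main protease that sheds MerTK, was 50.5 CPM in sham and 66.6 CPM in IR, under 2-fold apart (log2 ratio 0.40, 0.21 to 0.59). *Ppard*, a nuclear receptor gene of the list for the handling of engulfed material, was 9.87 and 22.5 CPM.

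**Figure D5:**
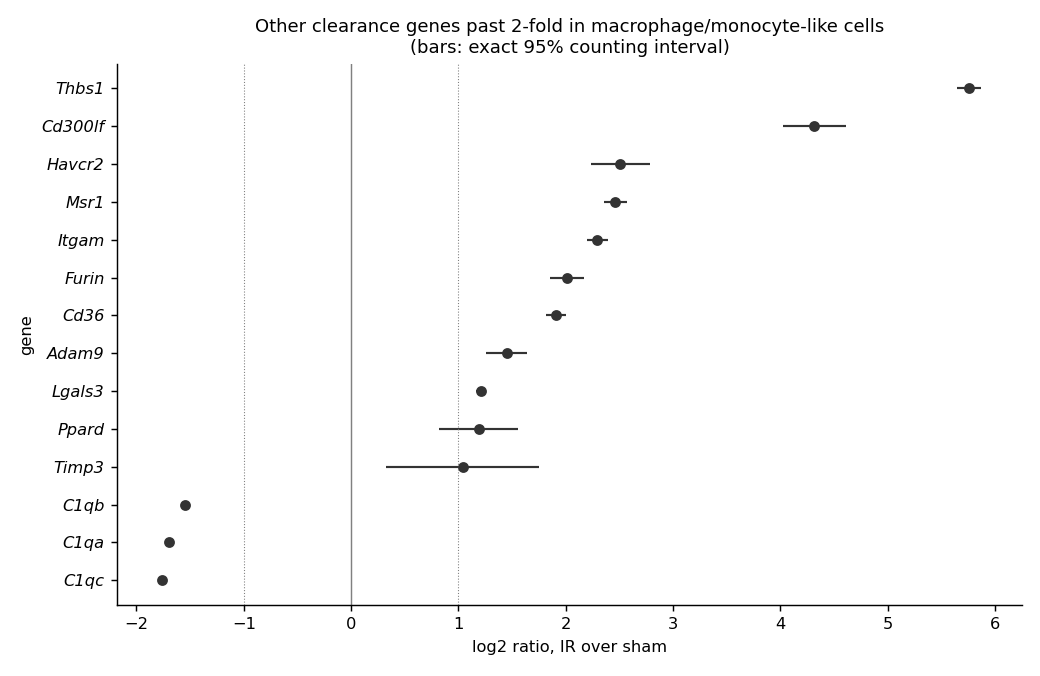
Log2 ratio of IR to sham in macrophage/monocyte-like cells for the 14 other clearance genes past 2-fold, with exact 95% counting intervals and dotted lines at 2-fold. *Thbs1* is highest at 5.76 and the 3 C1q genes are the only ones below 0.

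Across the 16 levels of 8 cell classes in 2 libraries, the genes whose log2(CPM + 10) pattern was most like that of a member were listed as a description. The levels of a library share its cells and depth. They were *Stom*, *Scarb1* and *Sult1a1* for *Mertk* (Pearson's r of 0.95, 0.94 and 0.94) and *Cd302*, *Rnd3* and *Ppp1r9a* for *Axl* (0.99, 0.97 and 0.97). For *Gas6* they were *Tmed10*, *Acvrl1* and *Trim47* (0.97, 0.93 and 0.93), and for *Timd4* *Siglec1*, *Ifnb1* and *Ppfia4* (0.99, 0.98 and 0.97). *Lrp1* shared *Cd302* with *Axl* (0.98), followed by *Ptprs* and *Akr1b8* (both 0.96). *Stab1* was closest to *Cdkn2a*, *Adam33* and *Lyve1* (0.94, 0.93 and 0.93), *Mfge8* to *Gnb4*, *Jam3* and *Prickle2* (0.99, 0.98 and 0.98), *Pros1* to *Lima1*, *Ctnnd1* and *Gas2l1* (all 0.98) and *Itgav* to *Copb2*, *Ado* and *Dennd4c* (0.94, 0.92 and 0.92). *Tyro3* had too few UMIs for this measure.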

How the data were processed

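The authors deposited 1 matrix of raw UMI counts for each condition. Reads had been aligned to mm10 with Cell Ranger (3.1.0 in the matrix headers). The 10 genes and all gene lists were chosen with earlier results of these data known. Thresholds for naming clusters, the rule for leaving out subclusters and the Ccr2 division were set after the clusters had been seen.

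Cells with 200 to 2500 genes and at most 30% mitochondrial UMIs were kept, the filter that the study states. The number of cells the study gives for each library is above what this filter leaves (9777 and 4880) and below what is left with no upper gene limit (11377 and 8260), so the cells used here are not exactly the cells of the study. Counts scaled to 10000 per cell were log-transformed, reduced to 2000 variable genes (the 10 genes left out) and 30 principal components, and clustered with leidenalg 0.10.2 at a resolution of 0.8. Clusters were named "-like" from 16 marker lists, and macrophage subclusters also from 8 lists. No doublets were removed beyond the gene limit; leaving out high doublet scores was an alternative. Counts were summed per class and library and divided by the class total (CPM). Intervals were exact Poisson for levels, exact Clopper-Pearson for shares and exact conditional binomial for ratios (scipy 1.17.1). A count of 0 was read as up to 3 UMIs. With 1 library per condition there were no p-values, and the 2-fold counts used genes with at least 20 UMIs over both libraries.

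The text names all 10 genes in classes of at least 50 cells, the pathway genes past 2-fold in macrophage/monocyte-like cells (at most 14) and, for each of the 10, the 3 genes with the most similar pattern among those with at least 200 UMIs. Other genes were named after their values were seen. Ratio intervals were checked on simulated data for the macrophage/monocyte-like comparison, over 11008 genes (11144 in the comparison itself). The counts were drawn from Poisson distributions, which the intervals assume, so the check concerns the calculation and not the fit to real cells. Of the intervals, 96.0% held the true value, and 98.5% of 196 genes changed 4-fold passed 2-fold, as did 1.59% of unchanged genes. Variation between mice could not be estimated from 1 library per condition. These shares therefore cover counting error only and are no error rates for IR against sham. The alternatives were no upper gene limit, a 10% mitochondrial limit, doublet scores, resolutions of 0.4 and 1.5, classes from each cell's own marker UMIs, the mean of per-cell CPM and subtraction of the B cell-like level.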

Additional observations from a re-analysis of the deposited data

Results flagged for a closer look

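*Mfge8* and *Lrp1* had IR-to-sham ratios of opposite sign in different cell classes, and neither difference was tested, since each condition was 1 library. The log2 ratio of *Mfge8* in endothelial-like cells exceeded that in fibroblast-like cells by 1.30, that in macrophage/monocyte-like cells by 1.63 and that in mural-like cells by 1.13. These differences rest on 85 IR endothelial UMIs, and without the upper gene limit the endothelial-like ratio itself was 0.01. For *Lrp1*, the log2 ratio in fibroblast-like cells minus that in macrophage/monocyte-like cells was -1.55. Of the fibroblast-like cells, 2959 of 2963 in sham were in 1 cluster and 145 of 231 in IR in another. At a resolution of 0.4, with 85 IR cells in that class, the ratios were 0.34 and 0.81, so the signs no longer differed.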

How the results depend on the processing

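Of the 398 values recomputed under 8 alternatives, 326 moved by less than their counting interval or stayed within 1.5 times, 67 moved further and 5 changed sign from a value whose counting interval had left out 0. Sign changes of values whose interval held 0 are not counted in these 5. Without the upper gene limit, 3 of 10 members passed 2-fold in fibroblast-like (27.9% of all genes), 2 of 9 in endothelial-like (17.2%) and 1 of 9 in Ccr2-low cells (18.5%). At 10% mitochondrial UMIs, 2 of 9 passed in fibroblast-like (30.3%) and 2 of 7 in endothelial-like cells (29.1%). With the mean of per-cell CPM 2 of 9 passed in fibroblast-like cells (30.8%), and with the B cell-like level subtracted 3 of 8 in endothelial-like cells (24.8%). In mural-like cells 1 of 7 passed with high doublet scores left out (18.4%) and with classes from own markers (18.5%). *Stab1* in macrophage/monocyte-like cells was at 0.15 with high doublet scores left out and 0.079 at resolution 1.5. *Lrp1* in fibroblast-like cells was at 0.34 at resolution 0.4. At 10% mitochondrial UMIs *Itgav* in mural-like cells was at -0.039 (46 IR cells). *Mertk* in Ccr2-high cells was then at -1.21, a bound from 0 UMIs set to 3 in 23 sham cells, and *Axl* at -0.99. The cause of these shifts was not tested. The Ccr2 values were alternatives chosen after seeing the data. No paired analysis was possible because no barcode names its sample, and leaving out a replicate was not possible for the same reason. No subcluster kept held 50 cells in both libraries, so no ratio within a subcluster was given.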
